A study of Mus musculus with 72 samples.

Results

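The genes described here encode the nuclear subunits of the 5 complexes of oxidative phosphorylation. Members were taken by name from GENCODE M21, the gene annotation that matched the deposited gene identifiers: protein-coding symbols starting with Ndufa, Ndufb, Ndufc, Ndufs, Ndufv, Uqcr, Cox4i, Cox5, Cox6, Cox7, Cox8 or Atp5, and Sdha, Sdhb, Sdhc and Sdhd, without the Ndufaf assembly factors. The rule found 86 of the 36047 mouse genes in each tissue table. By complex these were 36 genes of complex I, 4 of complex II, 8 of complex III, 20 of complex IV and 18 of complex V, the ATP synthase. Ndufa4 and Ndufa4l2 carry complex I names and were counted with complex IV, where the Ndufa4 protein is now placed. Complex V keeps the older symbols of that annotation, so that Atp5g1, Atp5g2 and Atp5g3 are the 3 genes of the c subunit, and Atp5s is a coupling factor rather than a structural subunit.

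All animals were EGFR DEL19 transgenic mice, which develop lung tumours from a mutant human EGFR under doxycycline (25 days, with tumours checked by micro-CT). They then received 1 of 3 genetic circuits intravenously at 10 mg/kg, every 2 days for 7 injections, and tissues were taken on day 14. CMV-scrR is the scrambled control, CMV-siRE encodes a small interfering RNA against EGFR, and CMV-GE11-siRE adds GE11, a peptide that binds EGFR. Tumour, lung, liver, kidney, spleen and thymus each gave 4 libraries per circuit, 72 libraries in 18 groups. Doxycycline and the transgene are thus shared by the control group, and the age of the mice and the promoter behind the transgene are not given in the labels used here. The sources used here do not say that the 4 libraries of a group are separate mice, so the p-values below measure the spread between libraries, which may be partly technical.

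Oxidative phosphorylation takes place in the inner mitochondrial membrane. Complex I takes electrons from NADH and complex II from succinate, complex III passes them to cytochrome c, complex IV hands them to oxygen, and complex V uses the resulting proton gradient to make ATP. Complex II is encoded entirely in the nucleus, whereas the other complexes combine nuclear subunits with a few encoded by mitochondrial DNA. Kidney proximal tubule and liver are rich in mitochondria, and complex IV has subunit forms restricted to muscle, lung or testis.

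Promoters were looked at because nuclear respiratory factor 1 (NRF1), the ETS factor GABP and YY1 are textbook regulators of these genes. Upstream sequence was available for 69 members (RefSeq, GRCm38.p6). The NRF1 core GCATGCG, read on both strands (reverse complement CGCATGC), occurred within 250 bases upstream of the start in 9 of the 69, or 13.0%, against 4.23% of 17491 genes with a promoter entry. The ETS word CCGGAAG, also searched on the other strand as CTTCCGG, occurred in 12 members, 17.4% against 10.2%. For YY1 the word ATGGCGG, with CCGCCAT on the other strand, occurred in 4 members, 5.80% against 3.002%. Any of the 3 words was present in 21 members, 30.4% against 15.991% of all promoters. A gene with several RefSeq starts was counted once if any of its windows held the word. A match is a description of letters, not of a bound site. The 5 stretches below are the 100 bases before a RefSeq start of members that were lower with CMV-GE11-siRE in tumour, with the matched words in capitals; they were picked because they hold such a word. RefSeq starts can lie inside the gene as the count table's annotation draws it. Atp5j has 2 RefSeq windows, and the other one held none of the 3 words. They are Atp5j (chr16:84834977-84835076, minus strand), Atp5k (chr5:108434400-108434499, minus strand), Ndufa8 (chr2:36049339-36049438, minus strand), Sdhb (chr4:140961171-140961270, plus strand) and Cox6a1 (chr5:115348959-115349058, minus strand).
Atp5j: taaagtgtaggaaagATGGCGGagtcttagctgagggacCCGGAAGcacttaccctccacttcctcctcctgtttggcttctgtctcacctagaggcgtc
Atp5k: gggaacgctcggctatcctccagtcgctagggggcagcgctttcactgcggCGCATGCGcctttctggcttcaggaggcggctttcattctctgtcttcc
Ndufa8: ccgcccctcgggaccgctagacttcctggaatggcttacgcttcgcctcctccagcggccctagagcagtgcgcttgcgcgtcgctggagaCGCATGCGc
Sdhb: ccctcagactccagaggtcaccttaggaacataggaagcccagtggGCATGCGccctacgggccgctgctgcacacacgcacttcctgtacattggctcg
Cox6a1: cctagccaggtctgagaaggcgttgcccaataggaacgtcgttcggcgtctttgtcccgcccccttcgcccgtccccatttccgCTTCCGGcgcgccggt
Within these 100 bases Atp5j carried both an ETS and a YY1 word, Atp5k, Ndufa8 and Sdhb an NRF1 word, and Cox6a1 an ETS word. The full 250-base windows of Atp5j and Cox6a1 also held the NRF1 word. Atp5h (ETS), Ndufa6 (NRF1) and Ndufa7 (YY1) were also lower in tumour with a word in their 100 bases, and are not printed. Among the members tested in tumour that had a promoter entry, 7 of the 24 that were lower with CMV-GE11-siRE held the NRF1 word, against 2 of the 43 that did not pass. The ETS word was in 5 and 7 of them, and the YY1 word in 2 and 2. These counts were made after the calls were known and were not tested. They use calls on the deposited scale, and the shares of the words among all genes called lower are not given here.

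Each tissue table holds fractional values that had been normalised within that table, here called deposited values; column totals ran from 16904876 to 21376077 outside tumour and from 5866248 to 43814146 in tumour. The mitochondrially encoded genes took 45.0% to 73.1% of the column total in the 8 CMV-scrR and CMV-siRE tumour libraries, against 8.04%, 37.9%, 17.5% and 19.0% with CMV-GE11-siRE. Human EGFR, the target, was at 2767, 1992, 4025 and 3215 in the CMV-scrR tumours. It was at 890.01, 452, 718 and 1324 with CMV-siRE and at 91.2, 79.8, 39.2 and 132 with CMV-GE11-siRE, lower in both and without overlap. Libraries standing apart were CMV-GE11-siRE replicate 4 of kidney (mitochondrial share 3.69%, other kidney libraries 9.60% to 12.7%) and of thymus (0.560%, others 1.64% to 1.92%). Defining markers of each organ were high in its libraries (hepatocyte genes in liver, proximal tubule genes in kidney, thymocyte genes in thymus, B cell and erythroid genes in spleen, alveolar type 2 genes in lung and tumour).

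Per kilobase of transcript, kidney had the highest level of oxidative phosphorylation transcripts and tumour the lowest. Levels were compared between genes and tissues per kilobase of the longest coding transcript, as a share of the per-kilobase signal without mitochondrially encoded genes, in the CMV-scrR libraries; for single genes this share is given in ppm, the scale of TPM. Summed over the members tested, it was 4.10% ± 0.266 in kidney (SD, n = 4, here and for the next values). Liver followed at 1.595% ± 0.0654, thymus at 1.43% ± 0.0330, spleen at 1.26% ± 0.0616, lung at 1.11% ± 0.0340 and tumour at 0.793% ± 0.132. Neighbours in this order did not overlap. The lowest liver library, at 1.54%, was above the highest thymus library, at 1.47%, and the highest tumour library, at 0.979%, was below the lowest lung library, at 1.07%. The tables were normalised separately, so no test was made between tissues, and in bulk tissue fewer cells of a type and less RNA per cell cannot be told apart. Kidney was highest for 76 of the 83 members tested in at least 1 tissue, and tumour was lowest for 54. The places of tumour and thymus depend on the division by length. As a share of the undivided signal without mitochondrially encoded genes, the members summed to 0.610% in tumour (0.564% to 0.660%). On that share thymus was at 0.598% (0.581% to 0.623%) and spleen at 0.640% (0.596% to 0.699%), so their order turned and their libraries overlapped. Lung was lowest on that share, at 0.465% (0.438% to 0.492%), and kidney stayed highest at 1.95%.

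**Figure D1:**
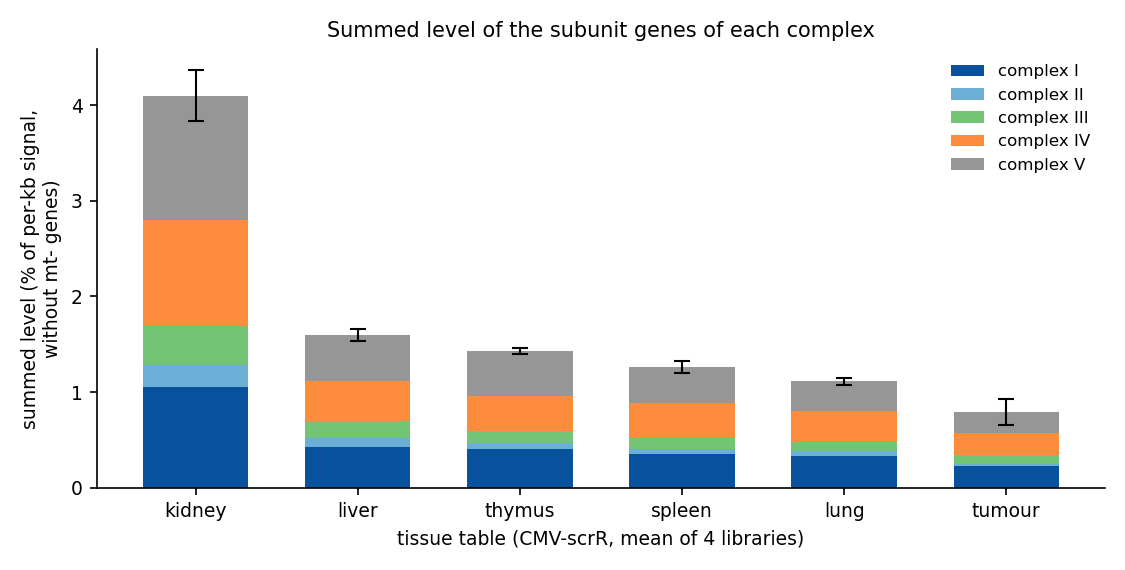
Stacked bars give the summed level of the members of each complex (y axis, % of per-kilobase signal without mitochondrially encoded genes) in the 6 tissue tables, as the mean of 4 CMV-scrR libraries, with the SD of the total as the error bar. The kidney bar reaches 4.10% and the tumour bar 0.793%, with complexes I, IV and V making up most of every bar.

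In kidney, complex V summed to 1.30% ± 0.0575, complex IV to 1.11% ± 0.0949, complex I to 1.05% ± 0.0706, complex III to 0.412% ± 0.0428 and complex II to 0.230% ± 0.0134. In tumour the order differed: complex IV was at 0.234% ± 0.0425, complex I at 0.227% ± 0.0416, complex V at 0.217% ± 0.0346, complex III at 0.0959% ± 0.0116 and complex II at 0.0185% ± 0.0034, and the first 3 lay within 1 SD of each other. The highest single member was Atp5b, the catalytic beta subunit of the ATP synthase, in kidney (3800 ± 246 ppm), liver (1130 ± 109) and thymus. Cox6a1, the common form of complex IV subunit 6A, led in lung (702 ± 34.5) and spleen (786 ± 62.1), and reached 2628 ± 256 in kidney. In tumour the highest were Cox4i1 of complex IV (329 ± 62.1) and Atp5e, the epsilon subunit of complex V (313 ± 25.8). Cox6a1 was at 311 ± 49.9 there, within the spread of both. For complex II, Sdha, the flavoprotein that oxidises succinate, was the highest member in every tissue but tumour, at 990.1 ± 118 ppm in kidney and 187 ± 4.61 in lung. In tumour Sdhb, the iron-sulfur subunit, was highest (60.1 ± 13.3), but within the spread of Sdhd (54.8 ± 7.56).

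Several complex IV forms went against the kidney-first order. Cox4i2, the lung form of subunit 4 (chr2:152754173-152765037 in GRCm38), was at 135 ± 10.5 ppm in lung and 26.8 ± 19.8 in tumour, and at most 2.52 in the other 4 tissues, while the ubiquitous Cox4i1 was at 480.0 ± 21.7 in lung. Ndufa4l2, a paralog of Ndufa4 known as a hypoxia-response gene, was at 84.9 ± 4.63 in lung, 12.7 ± 7.11 in tumour and 4.54 to 6.74 elsewhere. Cox6a2, the heart and muscle form of subunit 6A, was highest in lung (22.3 ± 4.28) and next in spleen (7.40 ± 2.63). Cox6b2, a form best known from testis, was at 80.0 ± 7.75 in spleen, 62.8 ± 6.95 in lung and 1.11 ± 0.741 in liver. Cox7a1, the muscle form of subunit 7A, was the exception in this group, with 29.8 ± 1.23 in kidney and at most 4.53 elsewhere.

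**Figure D2:**
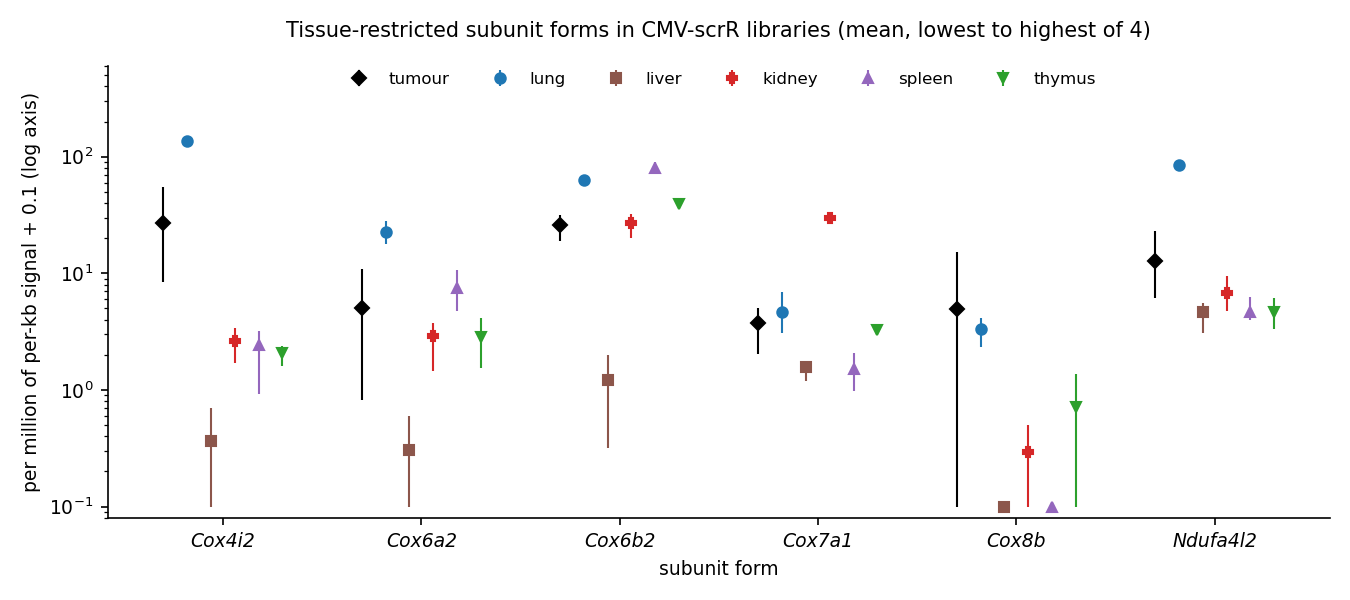
Levels of 6 restricted subunit forms (x axis) in the CMV-scrR libraries of each tissue, on a log axis as ppm of per-kilobase signal plus 0.1; points are means of 4 libraries and bars run from the lowest to the highest library. Cox4i2 and Ndufa4l2 stand highest in lung with tumour next, Cox6b2 in spleen, and Cox7a1 in kidney.

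Cox8b, the muscle and brown fat form of subunit 8, was near the bottom everywhere. It was listed at 0 in all CMV-scrR libraries of liver and spleen and reached 4.88 ± 7.00 ppm in tumour, where libraries ran from 0 to 15.2. Cox8c and a second identifier that shares the symbol Atp5o were listed at 0 in every library, and Cox7b2 stayed too low to test in every tissue. One lung library carried the muscle forms together: CMV-GE11-siRE replicate 3 had deposited values of 324 for Cox6a2, 60.5 for Cox7a1 and 47.3 for Cox8b. The other 3 libraries of that group lay between 121 and 207 for Cox6a2, 5.65 and 19.2 for Cox7a1, and 1.93 and 11.7 for Cox8b. The summed cardiac muscle markers (9 genes such as Myh6 and Tnnt2) were 18177 in that library and 792 to 3526 in the other 11 lung libraries.

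The c subunit of the ATP synthase, which forms the rotating ring, comes from 3 genes with the same mature protein. Atp5g3 was the most abundant of them in every tissue, from 160.0 ± 12.7 ppm in tumour to 1555 ± 94.9 in kidney. Atp5g1 ran from 13.5 ± 2.35 in tumour to 128 ± 17.3 in kidney, and Atp5g2 from 7.71 ± 1.52 in tumour to 40.4 ± 7.58 in thymus. The annotated coding transcript used for Atp5g1 is 4715 bases long, against 723 for Atp5g3 and 731 for Atp5g2, which lowers its level on this scale. Cox7a2l, which helps to join complexes III and IV into supercomplexes, was highest in thymus (384 ± 6.19) and then in spleen (307 ± 11.4), lung (259 ± 13.3) and kidney (257 ± 21.4), and the last 2 did not differ beyond their spread.

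In tumour, the members as a group lay below the other genes in the CMV-GE11-siRE libraries. Tests used limma on log2(deposited value + 1) with Benjamini-Hochberg adjustment over 14044 genes tested, a threshold of 0.05 for adjusted p, and all 12 tumour libraries in the fit. Of 82 members tested, 30 (36.6%) were lower and 1 was higher than with CMV-scrR. Over all genes tested, 19.8% were lower and 22.1% higher, 41.9% in all. Most members are short, and among other protein-coding genes under 1000 bases 32.8% were lower and 8.50% higher. The members' median log2 difference was -0.53, while the median of all genes was 0.05, so that the members sat 0.58 below it. That direction depends on the scale: rescaled to a common column total, 80 members were higher and 0 lower (members' median 1.56, all genes 2.10), and rescaled to a common total without mitochondrial genes, 12 were higher and 0 lower (0.23 against 0.80). The median of all genes was above that of the members on both scales, so these counts are not read as a rise particular to the members. The shares of all genes called there are not given here. Relative to the median of all genes, the members' median was -0.54 and -0.57 on those 2 scales, and 72 of the 82 members lay below that median on each of the 3. Scaling moves all genes of a library by the same factor, so apart from the pseudocount this agreement was fixed in advance and adds no support. With the mitochondrial share of each library as a covariate, no member passed (1 member and 653 of all genes at an unadjusted p under 0.05), and the relative median was -0.11.

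**Figure D3:**
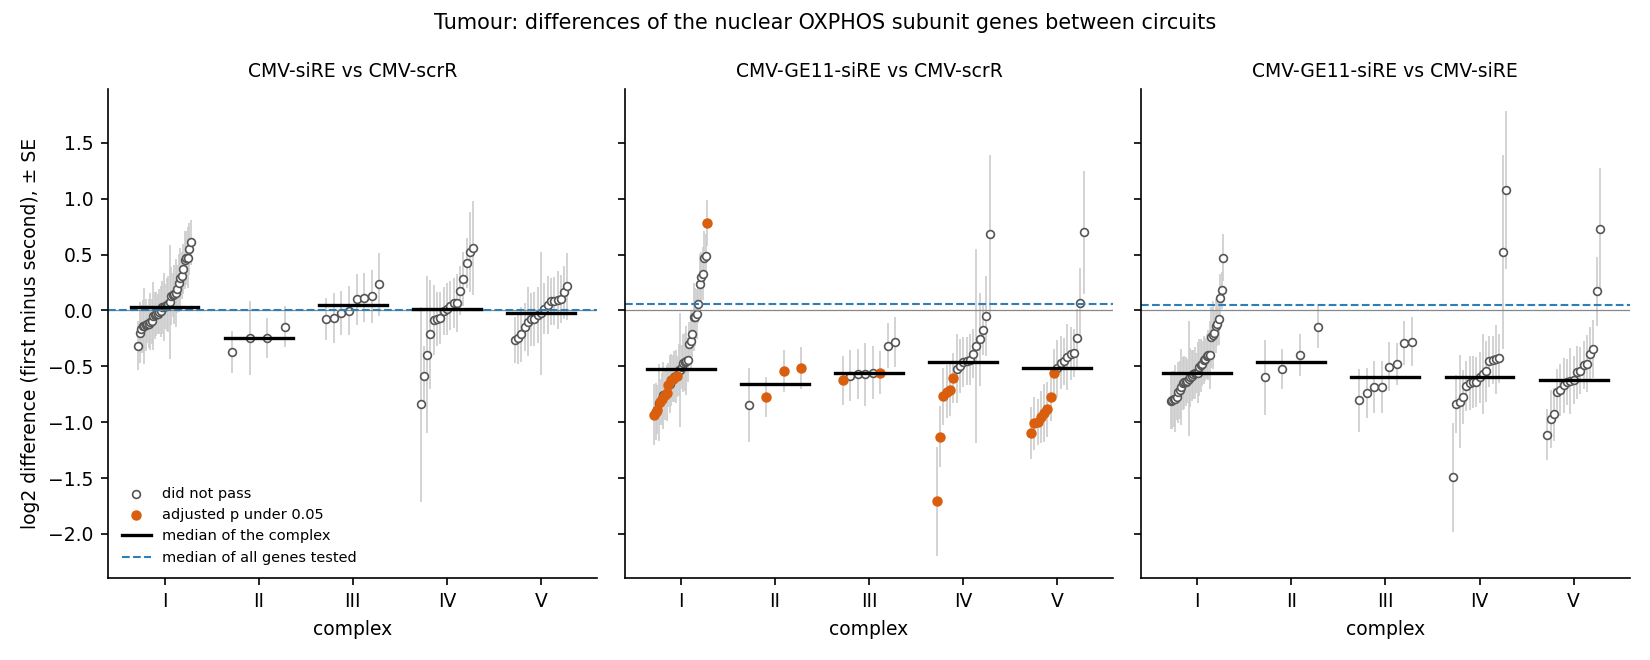
Each point is a member's fitted log2 difference in tumour (y axis, deposited scale, bars ± SE) by complex (x axis) for the 3 comparisons; filled points passed an adjusted p of 0.05, short lines are medians of the complexes and the dashed line is the median of all genes tested. In CMV-GE11-siRE against CMV-scrR the medians of the 5 complexes lie between -0.66 and -0.46 and Ndufs1 is the filled point above 0.

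Groups of libraries did not overlap for 38 members, or 46.3%, close to the 45.2% of all genes tested. By library, the members' median deviation from the CMV-scrR mean was -0.51, -0.42, -0.86 and -0.35 with CMV-GE11-siRE, against -0.24, -0.14, 0.18 and 0.24 within CMV-scrR itself, and these sets did not overlap. Leaving out CMV-GE11-siRE replicate 3, the lowest of them, reduced the 31 calls to 15, and leaving out CMV-scrR replicate 4 reduced them to 20. Shares of all genes called in those fits are not given here, so this fall is not read as particular to the members.

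**Figure D4:**
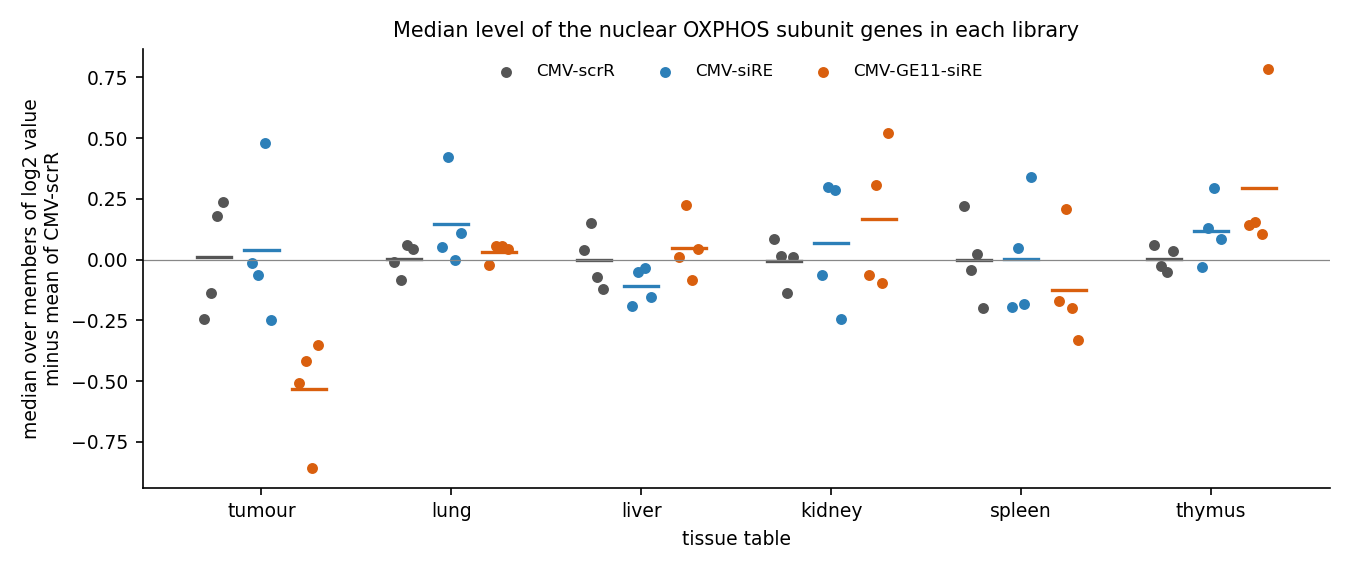
Every point is 1 library: the median over members of the log2 deposited value minus the CMV-scrR mean (y axis) in each tissue table (x axis), coloured by circuit, with a line at the mean of 4 libraries. The 4 CMV-GE11-siRE tumour libraries lie between -0.86 and -0.35, and the thymus library at 0.78 stands above its group.

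Complex I showed both directions. Of 36 members tested, 11 (30.6%) were lower and 1 higher, beside 19.8% and 22.1% of all genes, with a median of -0.52. Ndufv3, an accessory subunit beside the NADH-oxidising flavoprotein, was at 425, 406, 783 and 612 in CMV-scrR and at 302, 277, 221 and 335 with CMV-GE11-siRE. Every CMV-GE11-siRE library was below every control library, and the log2 difference was -0.93 ± 0.27 (SE) with an adjusted p of 0.0146 in limma. Ndufa12 (-0.91 ± 0.26) and Ndufb8 (-0.89 ± 0.22), both accessory subunits, were also lower without overlap, with adjusted p of 0.0127 and 0.00603. Ndufa8, whose NRF1 word is printed above, differed by -0.76 ± 0.22 (adjusted p 0.0147) on the deposited scale and by 0.002 once scaled to the total without mitochondrial genes.

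Ndufs1 went the other way. It encodes the largest subunit of complex I and carries iron-sulfur clusters (chr1:63143596-63176833, minus strand, GRCm38). It was at 266, 245, 176 and 292 in CMV-scrR, at 388, 289.5, 271 and 261 with CMV-siRE, and at 392, 466, 377 and 427 with CMV-GE11-siRE. All 4 CMV-GE11-siRE libraries were above all 4 controls, while CMV-siRE overlapped both groups. The difference from CMV-scrR was 0.78 ± 0.21 with an adjusted p of 0.00932 in limma. Relative to the median of all genes this difference was 0.73, 0.76 and 0.74 on the 3 scales. These values could hardly differ, as scaling moves all genes of a library by the same factor, so their agreement adds no support.

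Among the 10 members above 0 in that comparison were other catalytic core subunits of complex I, named after their values were seen. Ndufs7 (0.49 ± 0.20), Ndufs3 (0.47 ± 0.23) and Ndufv1 (0.06 ± 0.17) did not pass. The core subunits Ndufs8 (-0.47 ± 0.26) and Ndufv2 (-0.44 ± 0.20) did not pass either and lay near the median of complex I. Ndufs7 was at 396, 349, 442 and 523 in CMV-scrR, at 784, 527, 774 and 541 with CMV-siRE, and at 581, 572, 549.97 and 676 with CMV-GE11-siRE. Both treated groups stood above the controls without overlap, and adjusted p values were 0.114 and 0.0628.

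Complex II, which has no mitochondrially encoded partner, was lower in 3 of 4 members, 75.0% beside 19.8% of all genes, with a median of -0.66. Sdhb was at 581, 518, 556 and 666 in CMV-scrR and at 362, 326, 284 and 390.19 with CMV-GE11-siRE, without overlap (-0.77 ± 0.18, adjusted p 0.00447 in limma). Sdhc, a membrane anchor, differed by -0.54 ± 0.18 (adjusted p 0.0301) and Sdha by -0.52 ± 0.19 (adjusted p 0.0386). Sdhd, the other anchor, had a larger difference, -0.85 ± 0.33, but its libraries overlapped and it did not pass (adjusted p 0.0551). On the total without mitochondrial genes, Sdhb was at -0.01 and Sdhc and Sdha at 0.22 and 0.24, none of which passed.

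Complex III had 2 of 8 members lower, 25.0% beside 19.8% of all genes, and a median of -0.56. These were Uqcrb, a small subunit near the ubiquinone site (-0.63 ± 0.22, adjusted p 0.0354), and Uqcrc2, a core protein (-0.56 ± 0.19, adjusted p 0.0309). Uqcrfs1, the Rieske iron-sulfur protein, had a difference of similar size (-0.57 ± 0.22) with an adjusted p of 0.0522. All 8 members were below 0.

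Complex IV had 6 of 17 members lower, 35.3% beside 19.8% of all genes, with a median of -0.46. Cox7a2l was at 1365, 1968, 1543 and 1741 in CMV-scrR, at 838, 1471, 1659.87 and 690.14 with CMV-siRE, and at 628, 988, 674 and 747 with CMV-GE11-siRE. The CMV-GE11-siRE libraries were all below the controls, whereas CMV-siRE spanned both groups, and the CMV-GE11-siRE difference was -1.13 ± 0.27 (adjusted p 0.00550 in limma). Ndufa4l2 had the largest difference, -1.71 ± 0.49 (adjusted p 0.0132), although its groups overlapped. It was at 41.4, 134, 107 and 118 in CMV-scrR and at 49.9, 29.9, 14.2 and 25.7 with CMV-GE11-siRE, and the overlap came from the lowest control library. Cells of vessel walls can carry this gene: summed smooth muscle and pericyte markers were 921 to 3558 in CMV-scrR, 712 to 1056 with CMV-siRE and 521 to 1067 with CMV-GE11-siRE, and their part in the result was not tested.

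Cox6a1 was at 1324, 1282, 1516 and 2027 in CMV-scrR and at 1166, 1001, 772 and 1069 with CMV-GE11-siRE, without overlap (-0.61 ± 0.22, adjusted p 0.0417), and its call was lost in 5 of the 8 fits that left out 1 library (CMV-scrR replicates 3 and 4, CMV-GE11-siRE replicates 2, 3 and 4). The restricted forms Cox4i2 (-0.26 ± 0.42), Cox6a2 (0.68 ± 0.71), Cox6b2 (-0.05 ± 0.36) and Cox7a1 (-0.32 ± 0.87) did not pass, and their SEs were wider than those of the common forms. Cox4i2 was at 44.4, 252, 201 and 155 in CMV-scrR, at 165, 243, 189 and 217 with CMV-siRE, and at 136, 119, 94.4 and 111 with CMV-GE11-siRE. The CMV-GE11-siRE libraries fell inside the range of the controls and below all CMV-siRE libraries.

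Complex V had 8 of 17 members lower, 47.1% beside 19.8% of all genes, with a median of -0.52. Atp5o, the stalk subunit that confers oligomycin sensitivity (chr16:91925214-91931687, minus strand, GRCm38), was at 642, 689.6, 749 and 847 in CMV-scrR, at 569, 739.8, 1041 and 667 with CMV-siRE, and at 406, 398, 234 and 353 with CMV-GE11-siRE. CMV-GE11-siRE libraries lay below all 8 others, and the difference from CMV-scrR was -1.10 ± 0.23 (adjusted p 0.00257 in limma). Atp5c1, the central gamma shaft, was at 907, 1062, 1249 and 1202 in CMV-scrR and at 633, 621, 389 and 574 with CMV-GE11-siRE, again without overlap (-1.01 ± 0.24, adjusted p 0.00500). Atp5j, coupling factor 6 of the stalk, was at 1012, 1397, 1455 and 1275 in CMV-scrR and at 718, 634, 496 and 730.25 with CMV-GE11-siRE (-0.996 ± 0.21, adjusted p 0.00244). On the common column total each of the 3 was above the control, by 0.99 to 1.09.

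Other lower members of complex V were Atp5a1, the alpha subunit (-0.95 ± 0.23), Atp5e (-0.92 ± 0.26) and Atp5k, the e subunit that helps enzyme dimers form (-0.88 ± 0.25). The catalytic Atp5b did not pass (-0.38 ± 0.21, adjusted p 0.163), nor did the c subunit genes Atp5g3 (-0.52 ± 0.25, adjusted p 0.115), Atp5g1 (-0.42 ± 0.30) and Atp5g2 (0.07 ± 0.31). Many of these genes have processed pseudogenes in the mouse genome, and how reads shared with such copies were counted is not given in the sources used here, so single values carry that uncertainty.

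The other 2 tumour comparisons gave no calls among the members. With CMV-siRE against CMV-scrR the median was 0.01 (-0.13 to 0.11 when single libraries were left out), 3 members had an unadjusted p under 0.05, or 3.66% against 21.4% of all genes, and 0.256% of all genes passed. The smallest adjusted p values were those of Ndufs7 (0.61 ± 0.20, adjusted p 0.114) and Ndufs3 (0.55 ± 0.23, adjusted p 0.196), neighbouring core subunits of complex I. With CMV-GE11-siRE against CMV-siRE the median was -0.56 and 46 members had an unadjusted p under 0.05, or 56.1% against 26.2% of all genes, but none passed the adjustment, and 0.0214% of all genes did. Libraries did not overlap for 27 members, or 32.9%, against 13.1% of all genes. Atp5o (-1.11 ± 0.23, adjusted p 0.0627) and Atp5c1 (-0.93 ± 0.24, adjusted p 0.0699) came closest. Without CMV-siRE replicate 1 in this comparison, 22 members were lower and 1 was higher, and on the common column total 69 were higher. On that total the median was 1.05 for the members and 1.63 for all genes. The shares of all genes called in these fits are not given here.

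Members are short genes, and short genes as a class moved in the same direction. The longest coding transcript of a member had a median of 764 bases, and 54 of 86 were under 1000 bases, against a median of 2545 for all protein-coding genes in the tables. In CMV-GE11-siRE against CMV-scrR tumours, the 50 members under 1000 bases had a median of -0.56 and the 824 other protein-coding genes of that length -0.50. Of these members 20 were called lower, against 32.8% of the other genes of that length. From 1000 to under 2000 bases the medians were -0.46 for 24 members and -0.06 for 2888 other genes, with 6 members and 21.8% of the other genes called lower. From 2000 to under 4000 bases they were -0.29 for 6 members, too few to carry weight, and 0.13 for other genes. In thymus with CMV-GE11-siRE the members under 1000 bases had a median of 0.32 and other genes of that length 0.24, and in kidney the values were 0.18 and 0.22. The part of transcript length in these differences was not tested.

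**Figure D5:**
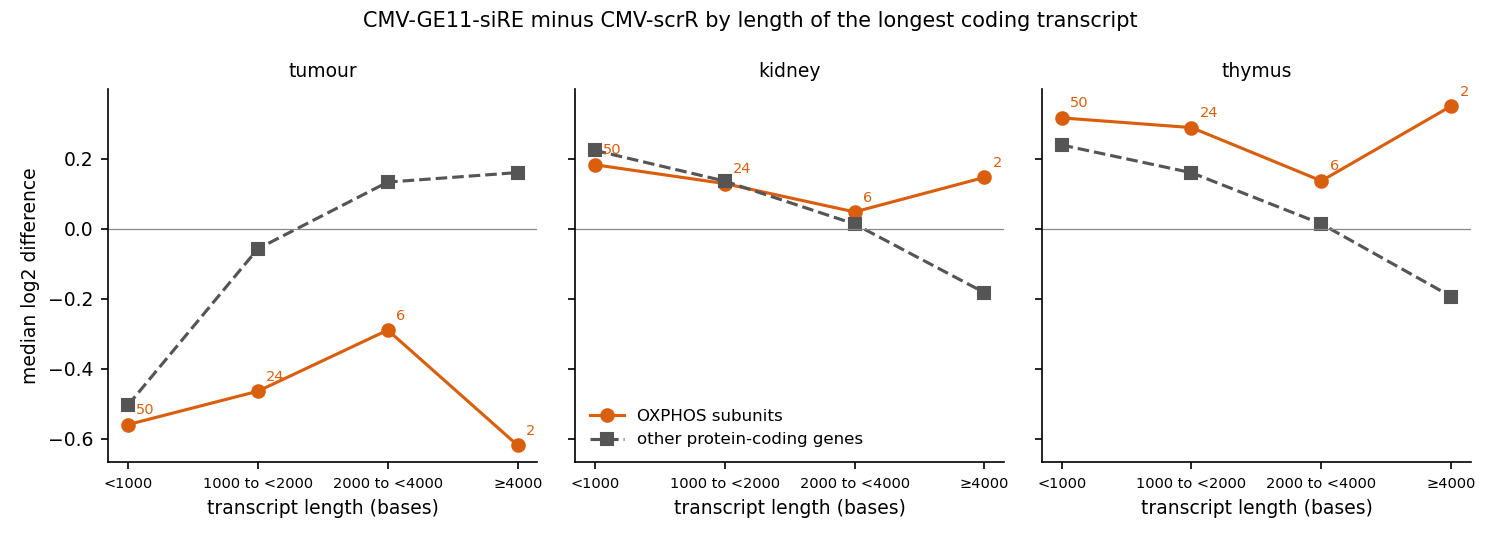
Median log2 difference of CMV-GE11-siRE minus CMV-scrR (y axis) by transcript length class (x axis) in tumour, kidney and thymus, for the members (circles, with their number) and for other protein-coding genes (squares). In tumour the lines start close together for genes under 1000 bases, at -0.56 and -0.50, and separate from 1000 to under 2000 bases, at -0.46 and -0.06.

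Related genes gave the setting in the same tumour comparison. All 13 mitochondrially encoded subunits were lower, with a median of -4.04, led by mt-Nd4l (-4.20 ± 0.63, adjusted p 0.000616), mt-Nd5 and mt-Nd4 of complex I. Within a library, which no rescaling changes, summed mitochondrially encoded signal was 259 to 416 times that of the nuclear members in CMV-scrR, 98.6 to 408 times with CMV-siRE and 11.6 to 84.3 times with CMV-GE11-siRE. The CMV-GE11-siRE libraries were thus below all 8 others in the balance between the genomes. Of all genes 19.8% were called lower and 22.1% higher, and each list below stands beside those shares. Assembly factors were lower in 8 of 48, or 16.7%, and higher in 3 (Coa5 -1.80 ± 0.31, Ttc19 1.44 ± 0.31, Taco1 -1.06 ± 0.31). Tricarboxylic acid cycle genes were lower in 7 of 17, or 41.2%, and higher in 1, led by Sucla2 (-0.94 ± 0.23), Suclg1 and Pdha1.

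Mitochondrial ribosomal proteins were lower in 19 of 78, or 24.4%, and higher in 2 (median -0.35, Mrps23 -1.46 ± 0.34, Mrps18a -1.42 ± 0.30). Electron carriers were lower in 2 and higher in 1 of 7, with Etfa at -1.32 ± 0.32, Etfdh at -1.04 ± 0.27 and Coq10a at 1.04 ± 0.31. Of 18 regulators of mitochondrial gene expression, 8 were higher, or 44.4%, 1 was lower and the test was not passed by 9. Their median was 0.65. Pprc1, a coactivator of NRF1, was at 2.70 ± 0.38 (adjusted p 0.000513), Polrmt, the mitochondrial RNA polymerase, at 1.79 ± 0.33, and Polg2, a mitochondrial DNA polymerase subunit, at 1.71 ± 0.36. These lists are given on the deposited scale and carry the scale dependence described for the members. Alveolar type 2 markers also moved with the circuit, from 49673 to 130470 in CMV-scrR through 116359 to 689655 with CMV-siRE to 347773 to 547553 with CMV-GE11-siRE, and their part in these results was not tested.

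In spleen, 1 of 81 members passed with CMV-GE11-siRE, against 2.29% of all genes called higher and 3.47% lower (5.76% in all). This was again Ndufs1, at 1499, 1479, 1604 and 1398 in CMV-scrR, 1825, 1754, 1916 and 1683 with CMV-siRE, and 1832, 2031, 1921 and 1719.75 with CMV-GE11-siRE. Both treated groups lay above all controls. The difference was 0.33 ± 0.08 with CMV-GE11-siRE (adjusted p 0.03905 in limma) and 0.26 ± 0.08 with CMV-siRE (adjusted p 0.0902), and the first call was lost in 6 of the 8 fits that left out 1 library (CMV-scrR replicates 1, 2 and 4, CMV-GE11-siRE replicates 1, 2 and 3). The members' median was -0.12 with CMV-GE11-siRE, where 7 had an unadjusted p under 0.05 (8.64% against 24.5% of all genes). It was -0.05 without CMV-scrR replicate 1 or without CMV-GE11-siRE replicate 4, -0.20 without CMV-scrR replicate 4 and -0.26 without CMV-GE11-siRE replicate 2. With CMV-siRE it was -0.0044, and -0.09 to 0.07 when single libraries were left out. Cox6a2 was at 36.2, 60.0, 72.8 and 37.9 in CMV-scrR and at 96.4, 111, 99.3 and 80.6 with CMV-siRE, without overlap, but it did not pass (0.94 ± 0.25, adjusted p 0.0508), with 4.61% of all genes called. In the same libraries summed erythroid markers were 808703 to 1169036 in CMV-scrR and 106431 to 282628 with CMV-siRE, and their part was not tested. CMV-GE11-siRE against CMV-siRE gave no call (0.112% of all genes; 2 members at an unadjusted p under 0.05, or 2.47% against 9.79% of all genes), and the closest were Ndufc1, a small complex I subunit (-0.49 ± 0.18, adjusted p 0.393), and Cox7a2l (-0.22 ± 0.10, adjusted p 0.489).

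No member passed in lung. With CMV-siRE, 73 of 83 members were above 0 with a median of 0.14, 20 had an unadjusted p under 0.05, or 24.1% against 17.6% of all genes, and 1.41% of all genes passed. Uqcrh, the acidic hinge protein of complex III, was at 878, 932, 911 and 937 in CMV-scrR and at 1146, 1499.8, 1125 and 1213 with CMV-siRE. Those groups did not overlap, and the difference was 0.44 ± 0.12 (adjusted p 0.0730). Atp5l, the g subunit of complex V, differed by 0.32 ± 0.09 (adjusted p 0.0855). CMV-siRE replicate 2 had a median deviation of 0.42, against 0.0522, -0.0008 and 0.110 in the others, and without it the median was 0.06. With CMV-GE11-siRE the median was 0.05, and 0.02 without CMV-scrR replicate 2, with 0.0% of all genes called and 1 member at an unadjusted p under 0.05 (1.20% against 7.90% of all genes). Atp5s (0.37 ± 0.16, adjusted p 0.606) and Uqcrh (0.22 ± 0.12, adjusted p 0.690) came closest. Against CMV-siRE it was -0.12, and -0.03 without CMV-siRE replicate 2. There 0.0619% of all genes were called and 9 members had an unadjusted p under 0.05 (10.8% against 9.97% of all genes), the closest being Ndufb2 (-0.37 ± 0.11, adjusted p 0.335) and Sdha (0.22 ± 0.08, adjusted p 0.410).

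In liver no member passed, although 4.04% of all genes passed for CMV-siRE, and for CMV-GE11-siRE 4.23% did. The median was -0.11 with CMV-siRE, and -0.05 without CMV-scrR replicate 2, with 68 of 78 members below 0 and 10 at an unadjusted p under 0.05 (12.8% against 19.95% of all genes). Uqcr11, a small complex III subunit, was at 1239, 1408, 1079 and 1053 in CMV-scrR and at 948, 993, 872 and 931 with CMV-siRE, without overlap (-0.34 ± 0.10, adjusted p 0.0817). Sdhc was next (-0.22 ± 0.07, adjusted p 0.104). With CMV-GE11-siRE the median was 0.05, from -0.01 without CMV-GE11-siRE replicate 2 to 0.10 without CMV-scrR replicate 2, and 4 members had an unadjusted p under 0.05 (5.13% against 20.7% of all genes). Ndufs1 was at 1425, 1844, 1739 and 1632 in CMV-scrR and at 1901, 2353, 1887 and 2038 with CMV-GE11-siRE, above all controls, with a difference of 0.30 ± 0.11 that did not pass (adjusted p 0.124), and Uqcrc2 was next (0.20 ± 0.08, adjusted p 0.159). Between the EGFR circuits the fitted difference of CMV-GE11-siRE from CMV-siRE was above 0 for 76 of 78 members, with a median of 0.17 (0.11 without CMV-GE11-siRE replicate 2), and 13 (16.7%) did not overlap against 4.58% of all genes. None passed (20 at an unadjusted p under 0.05, or 25.6% against 7.66% of all genes; 0.0069% of all genes passed), and the smallest adjusted p was 0.5165, for Atp5a1 (0.22 ± 0.07), followed by Ndufa9 (0.22 ± 0.08, adjusted p 0.526).

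Kidney and thymus also had no member past the threshold, and in both the members' shift with CMV-GE11-siRE was smaller without replicate 4. In kidney 0.0% of all genes passed in each of the 3 comparisons. The members' median with CMV-GE11-siRE was 0.16, and 0.04 without that library, 0.23 without CMV-GE11-siRE replicate 1 and 0.25 without replicate 3. In each comparison 1 to 2 members had an unadjusted p under 0.05, or 1.22% to 2.44%, against 3.97% to 9.84% of all genes. Ndufa4l2 was at 54.2, 34.2, 34.4 and 37.4 with CMV-siRE and at 63.4, 110.18, 58.6 and 84.0 with CMV-GE11-siRE, without overlap, yet its adjusted p was 0.999 (0.95 ± 0.29). Cox6a2 (-1.50 ± 0.63, adjusted p 0.496) and Cox4i2 (-0.96 ± 0.41, adjusted p 0.498) came closest with CMV-siRE against CMV-scrR. With CMV-GE11-siRE against CMV-scrR these were Ndufa4l2 (0.79 ± 0.29) and Cox6b2 (0.47 ± 0.25), both with an adjusted p of 0.520, and against CMV-siRE the next was Cox4i2 (0.86 ± 0.41, adjusted p 0.999).

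In thymus the median with CMV-GE11-siRE was 0.30, with 74 of 82 members above 0, and 0.14 without replicate 4, whose own deviation was 0.78. Libraries did not overlap for 32 members, 39.0% against 8.91% of all genes, but 0.0% of all genes passed and 12 members had an unadjusted p under 0.05 (14.6% against 9.44% of all genes). Uqcrh was at 1184, 1138, 1224 and 1143 in CMV-scrR and at 1274, 1618, 1318 and 2116 with CMV-GE11-siRE (0.40 ± 0.15, adjusted p 0.472), and Ndufv3 followed (0.39 ± 0.15, adjusted p 0.472). Ndufs1 went against the other members in replicate 4, at 875, with 1773, 1587 and 1775 in the other 3. Dividing-cell markers summed to 8508 in that library and 30890.16 to 46200.0 in the other 3, and their part was not tested. With CMV-siRE the median was 0.12, 0.19 without its replicate 1 and 0.06 without its replicate 3. Dividing-cell markers were 19977.19 to 33905.17 in the 4 CMV-siRE libraries and 41509.83 to 44645.37 in CMV-scrR, without overlap, and their part was not tested. For CMV-siRE 0 members had an unadjusted p under 0.05, against 5.65% of all genes, and 0.00609% of all genes passed; Sdha (-0.25 ± 0.12) and Cox7b (-0.30 ± 0.15) came closest, both with an adjusted p of 0.699. Between the EGFR circuits the median was 0.16, but it was 0.02 when CMV-GE11-siRE replicate 4 was left out, and leaving out CMV-siRE replicate 1 gave 0.10, with 1 member at an unadjusted p under 0.05 (1.22% against 2.81% of all genes) and 0.0% of all genes called. Cox5a (0.40 ± 0.16) and Atp5f1 (0.22 ± 0.10) came closest, both with an adjusted p of 0.9996.

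Pairs of forms were compared by their ratio within a library, which scaling leaves unchanged. Of 129 exact permutation tests (two-sided, 4 against 4 libraries, smallest possible p 0.0286), none passed adjustment, and the smallest adjusted p was 0.461. Adjustment could be passed only if at least 74 of them had reached that smallest p, and 6 did, so the lack of a call says nothing of whether the ratios differed. In lung, the deposited value of Ndufa4l2 was 68.6% ± 4.57 (SD, n = 4) of that of Ndufa4 in CMV-scrR and 49.3% ± 9.21 with CMV-siRE, without overlap (exact p 0.0286). Cox6b2 was 24.5% ± 3.78 of Cox6b1 in CMV-scrR and 17.8% ± 1.34 with CMV-siRE, also without overlap (exact p 0.0286). In kidney Ndufa4l2 was 1.99% ± 0.420 of Ndufa4 with CMV-GE11-siRE and 1.13% ± 0.368 with CMV-siRE (exact p 0.0286). In tumour Cox6a2 was 3.51% ± 1.37 of Cox6a1 with CMV-GE11-siRE and 1.22% ± 0.904 with CMV-siRE (exact p 0.0286).

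Outside tumour the shares of all genes called were 1.41% in lung with CMV-siRE, 4.61% and 5.76% in spleen with CMV-siRE and with the GE11 form, and 4.04% and 4.23% in liver. The related genes that passed there are all named here. mt-Co2, a catalytic subunit of complex IV, was higher with CMV-siRE in lung (0.99 ± 0.20, adjusted p 0.0321 in limma) and spleen (0.94 ± 0.18, adjusted p 0.0105). Lyrm7, a complex III assembly factor, was higher in spleen with CMV-siRE (1.25 ± 0.33), as was Tmem126a of complex I assembly (0.50 ± 0.13, adjusted p 0.0446), and Nubpl, which assembles complex I iron-sulfur clusters, with CMV-GE11-siRE (0.77 ± 0.19). Gabpa, the DNA-binding part of GABP, was higher in spleen with both circuits (0.36 ± 0.09 and 0.55 ± 0.09), and its partner gene Gabpb2 in liver with both (0.41 ± 0.09 and 0.47 ± 0.09). Hcfc1, a transcriptional cofactor, was lower in spleen with CMV-siRE (-0.47 ± 0.10, adjusted p 0.0183). Each pair of comparisons shares its CMV-scrR libraries.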

How the data were processed

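RNA from 6 tissues was sequenced after TRIzol extraction and Illumina TruSeq library preparation, per the labels' protocols. The deposited values are a normalised signal per gene, fractional and scaled within each tissue table by the authors; the submitters' processing notes name DESeq2, without saying for which step. For the aligner, the counter, the build and the annotation, the status is: not given in the sources used here. Between 50.3% and 72.6% of low values per library were whole multiples of a common step (within 0.1 of a step), so reads were not recovered and no count model was used. The members and lists were chosen with earlier results of these data known.

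The filter kept genes that reached a value of 10 in 4 or more of a table's 12 libraries, and these were tested with limma 3.58.1 (trend, R 4.3.3) on log2(value + 1), 1 mean per circuit, 3 comparisons per tissue, 18 in all. Fold changes are on that log2 scale and understate changes of low genes. Adjusted p values cover all genes tested. Between 78 and 83 of the 86 members were tested per tissue. Named genes were the up to 3 largest rises and falls that passed without overlap, the highest per-kilobase member of each complex, the restricted forms, the c subunit genes, complex II, and the smallest p values where none passed; others were named after their values were seen. Positions and lengths come from GENCODE M21 (GRCm38); 35968 identifiers matched. Ratios of forms used exact permutation tests (scipy 1.17.1). Alternatives were another pseudocount (0.1), no filter, 2 other scalings, a covariate for the mitochondrial share, a replicate block, the 8 libraries compared alone, and leaving out each library. The fits were also run on simulated data with each gene drawn independently. Shifts shared by a whole library were not simulated, and the outcome is not given here. Values of 1 member are not reported here.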

Additional observations from a re-analysis of the deposited data

Results flagged for a closer look

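Within groups of 4 libraries, 92 sets of values were examined for a library far from the others, and 4 stood apart by Dixon's test; chance gives about 1 in 20. The members' median deviation was 0.78 in thymus CMV-GE11-siRE replicate 4, far above the other 3 thymus libraries of that circuit. It was -0.0208 in lung CMV-GE11-siRE replicate 1, just below a tight group. Ndufa4l2 was at 25.1 in liver CMV-scrR replicate 3, the lowest of its group, and at 54.2 in kidney CMV-siRE replicate 1, the highest of its group. Between tissues, the members' median deviation with CMV-GE11-siRE was below 0 in 4 of 4 tumour libraries and above 0 in 4 of 4 thymus libraries, a difference of means of -0.83, and this difference was not tested. The sign in tumour holds on the deposited scale only. The members' median in tumour was 1.56 on the common column total and 0.23 on the total without mitochondrially encoded genes. On each of these 3 scales, 72 of the 82 members lay below the median of all genes. Scaling could hardly change that count, as it moves all genes of a library by the same factor. The thymus median of 0.30 was 0.14 without replicate 4.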

How the results depend on the processing

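The count of 31 members called in tumour with CMV-GE11-siRE against CMV-scrR became 80 on a common column total, 12 on the total without mitochondrial genes and 0 when the fit held each library's mitochondrial share, and ranged from 15 to 35 when 1 library was left out. Against CMV-siRE, 0 became 69 and 1 (Ndufs1) on those scales and ranged from 0 to 23. In spleen with CMV-siRE, 0 became 1 (Cox6a2) with a pseudocount of 0.1, 2 (with Ndufs1) on the column total and 4 (also Cox7a2l and Uqcrc2) on the total without mitochondrial genes, with 0 to 1 when 1 library was left out. In spleen with CMV-GE11-siRE, 1 became 0 without the filter, with the replicate block and with the 8 libraries alone, with 0 to 2 when 1 library was left out (2 being Atp5e and Ndufs7, lower, without CMV-GE11-siRE replicate 2). In thymus with CMV-siRE, 0 became 3 with the 8 libraries alone (Cox7a2l and Ndufb11 higher, Sdha lower) and 4 in a fit less CMV-GE11-siRE replicate 4, chosen after seeing the data (Cox7a2l, Ndufb11, Sdhc and Atp5d). The shares of all genes called in these alternative fits are not given here, so the counts and genes are not read as results particular to the members. The causes were not tested.

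In tumour with CMV-GE11-siRE against CMV-scrR, the column total turned the sign of Sdhb (1.32), Atp5e (1.17), Sdha (1.57), Atp5j (1.09), Atp5o (0.99), Cox7a2l (0.96), Atp5c1 (1.08), Ndufa8 (1.33), Ndufa4l2 (0.34), Cox6a1 (1.48), Atp5k (1.20) and Sdhc (1.55). The total without mitochondrial genes did so for Sdha (0.24), Ndufa8 (0.002), Cox6a1 (0.15) and Sdhc (0.22), and the covariate for Sdha (0.17), Cox7a2l (0.0503) and Atp5k (0.0580). Over the 31 members called, 30, 14 and 8 changed sign under these 3 settings, and 0, 16 and 23 kept it without passing.

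Library numbers did not pair the samples (correlations of same-numbered libraries from -0.28 to 0.27), and with the replicate block 25 members were called where 31 had been (tumour, CMV-GE11-siRE against CMV-scrR), and 24 were shared; the block changed the count of no other comparison by more than 1.5 times except in spleen. The members' summed share of the column total with CMV-scrR moved, once mitochondrial genes were left out of the total, from 0.192% to 0.610% in tumour, 0.750% to 0.794% in liver and 1.72% to 1.95% in kidney. Lung was lowest on that share, at 0.465%. With exon-union lengths the median level in ppm was lower than with the longest transcript, and came to 49.0 in tumour, 89.9 in lung, 126 in liver, 298 in kidney, 98.3 in spleen and 114 in thymus.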
